A study of Mus musculus with 23 samples.

Results

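Acetylation and trimethylation of lysine 27 of histone H3 (H3K27ac and H3K27me3) were compared in Ebf2-EGFP+ cells sorted from the E15.5 mouse cerebral cortex. The peaks of the H3K27ac list and of the H3K27me3 list on chromosomes 1 to 19, X and Y were set against each other, and peaks that overlapped by 1 bp or more were called shared. Each protein-coding transcription start site (TSS) was then given 1 of 4 states, by whether a peak of either mark lay within 5 kb of it. The members were 25787 H3K27ac peaks and 1429 H3K27me3 peaks, which made 27216 of the 230604 nuclear peaks in the 8 lists of the series. The 21938 protein-coding genes of the annotation were all scored.

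The series followed the first neurons of the cortex by chromatin immunoprecipitation and sequencing (ChIP-seq) in sorted cells of Ebf2-EGFP embryos (strain Tg(Ebf2-EGFP)FB58Gsat) from E11.5 through E13.5 to E15.5. In this line EGFP is made where the Ebf2 transgene is active, first in preplate neurons and by E15.5 mostly in Cajal-Retzius (CR) neurons, the reelin-secreting cells of layer 1. Each E15.5 list stood for 2 ChIP libraries, with 2 input libraries of the same cells. Whether the libraries were pooled for peak calling was not given in the sources used here, so every value below comes from 1 list per mark, has no replicate error and carries no test. The other groups named here were EGFP+ cells at E11.5 and E13.5 and EGFP- cells at E11.5 of the same strain, again with 1 list per mark. The EGFP- lists differed widely in size, with 48962 H3K27me3 peaks and 1386 H3K27ac peaks, and that H3K27ac list stood for 1 library.

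Lysine 27 of histone H3 can hold an acetyl group or up to 3 methyl groups, but never both at once on 1 lysine. Acetylation is laid down by Crebbp and Ep300 and marks active promoters and enhancers, while trimethylation is laid down by Ezh1 or Ezh2 in Polycomb repressive complex 2 and typically covers developmental genes that are silent in a lineage, such as Hox genes in the forebrain. Where peaks of both marks meet in a sorted population, the marks may sit on different cells, different alleles, different tails of 1 nucleosome or neighbouring nucleosomes, and peak lists do not tell these apart. In such bulk samples, fewer cells that carry a mark and less of the mark per cell cannot be told apart either.

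Sequences from the kinds of place where the marks met are shown first, because the meeting points differed in kind. All positions are on GRCm38 (mm10), and sequences were read from the GRCm38.p6 assembly and, for the promoter, from the RefSeq promoter table of that build. The widest H3K27me3 peak of the HoxA block lay in Hoxa5, and a stretch of 300 bases of it without untranslated exon sequence (chr6:52202961-52203260, minus strand) held 12 CpG dinucleotides, here in capitals.
HoxA: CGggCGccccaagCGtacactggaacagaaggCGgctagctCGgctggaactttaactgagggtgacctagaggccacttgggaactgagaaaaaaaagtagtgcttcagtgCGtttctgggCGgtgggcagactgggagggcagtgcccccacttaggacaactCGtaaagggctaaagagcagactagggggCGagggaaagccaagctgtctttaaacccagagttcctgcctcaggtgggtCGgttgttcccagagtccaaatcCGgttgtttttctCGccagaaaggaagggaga
The promoter of the heat shock gene Hspa1b (chr17:34959239-34959488, minus strand, the 250 bases before its start) had both marks, with the match to the heat shock element core GAANNTTC in capitals.
Hspa1b: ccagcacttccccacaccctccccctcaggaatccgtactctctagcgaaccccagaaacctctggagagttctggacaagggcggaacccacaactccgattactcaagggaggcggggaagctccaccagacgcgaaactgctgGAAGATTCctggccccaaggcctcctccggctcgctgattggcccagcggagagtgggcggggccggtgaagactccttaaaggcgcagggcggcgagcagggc
A peak in Nrp1 lay within 1 coding exon, of which the upstream edge is shown (chr8:128502485-128502784, plus strand), with intron bases in lower case and the coding exon in capitals.
Nrp1: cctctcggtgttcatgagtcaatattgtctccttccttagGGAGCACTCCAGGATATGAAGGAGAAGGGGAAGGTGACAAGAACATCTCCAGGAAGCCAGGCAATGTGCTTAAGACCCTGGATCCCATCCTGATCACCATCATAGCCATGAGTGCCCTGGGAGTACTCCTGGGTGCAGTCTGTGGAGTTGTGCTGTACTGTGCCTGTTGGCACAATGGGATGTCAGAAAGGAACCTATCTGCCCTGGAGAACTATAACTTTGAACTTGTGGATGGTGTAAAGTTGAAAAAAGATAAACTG
A pair of neighbouring units of the satellite array on chromosome 9 (chr9:3000965-3001198 and chr9:3001199-3001432, plus strand) shows the tandem repeat, with the bases that differ between the units in capitals.
Satellite unit 1: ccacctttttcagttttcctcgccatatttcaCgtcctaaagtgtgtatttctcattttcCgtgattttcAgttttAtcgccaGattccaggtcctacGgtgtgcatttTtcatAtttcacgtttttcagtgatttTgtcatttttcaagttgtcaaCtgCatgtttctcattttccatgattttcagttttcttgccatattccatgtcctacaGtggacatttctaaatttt
Satellite unit 2: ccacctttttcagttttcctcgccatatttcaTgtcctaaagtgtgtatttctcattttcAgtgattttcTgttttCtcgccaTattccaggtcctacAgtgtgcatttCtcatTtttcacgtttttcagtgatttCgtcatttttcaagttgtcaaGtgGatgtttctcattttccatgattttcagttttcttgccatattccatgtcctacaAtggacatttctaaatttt

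The lists were of unequal size and their peaks were narrow. H3K27ac peaks covered 11205 kb with a median width of 283 bp, and H3K27me3 peaks covered 255.4 kb with a median of 137 bp. Of the H3K27me3 peaks, 450 (31.5%) had 118 bp, the smallest width in that list, so nearly 1 in 3 sat at the lower end of what was called. The score column was 0 in every line of these files, which leaves position and width as the measures of a peak.

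The CR markers were read for acetylation, which is only a partial check of the CR label. The paper picked B3gat1, Brinp1, Chst8, Dnm3, Jph3, Nhlh2, Ppp2r2c, Slit1 and Sncb by their RNA. It required enrichment in Ebf2-EGFP+ cells at every stage, E15.5 included. H3K27ac at those genes is therefore not independent of how they were chosen. Of the 20 CR markers, 15 had H3K27ac at the TSS, against a background of 52.3% of all protein-coding TSS. Reln, which encodes the secreted protein reelin, had 1 peak of 1625 bp, Ebf3, a transcription factor of the Ebf family, had 1 of 1337 bp, and Tbr1, a T-box factor of early cortical neurons, had 3 that summed to 2075 bp. Lhx1, Lhx5 and Nhlh2, transcription factors of CR neurons, had 1, 3 and 2 peaks. The others with H3K27ac were Trp73, Ppp2r2c, Chst8, Slit1, Brinp1, Dnm3, Jph3, B3gat1 and Cxcr4. Calb2, Ebf1, Ebf2, Cdkn1a and Sncb had neither mark at the TSS, although Ebf2 drives the reporter. Of these, only Sncb was among the genes picked by RNA, so the markers chosen otherwise were acetylated less often. Pan-neuronal genes had H3K27ac at 14 of 15. For other cells the counts were 1 of 6 endothelial, 1 of 7 erythroid, 1 of 6 meningeal, 2 of 6 microglial, 4 of 12 GABAergic and 7 of 12 progenitor genes. Cortical plate and subplate factors had H3K27ac at 8 of 12 and the oligodendrocyte and astrocyte list at 5 of 8. The part of other cells in either list was not tested.

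H3K27me3 peaks at TSS were few. They were found at 232 protein-coding TSS, a background of 1.06%, so a short list would hold 0 or 1 at that rate. The Hox genes were above it, with 7 of 39 (17.9%), but only 1 of the 7, Hoxb5, lay outside HoxA. The others were neighbours at the HoxA block described below. Among 43 transcription factors of non-neural lineages (Gata, Pax, Tbx, Myf and similar genes) 1 had the mark, Gata6, with a single peak of 153 bp at 2877 bp from its start and no H3K27ac. Another 7 of the 43 had H3K27ac alone and 35 had neither mark. No H3K27me3 peak lay at the TSS of any of the 12 GABAergic genes, 12 progenitor genes or 53 keratin genes, and 1 of 1135 olfactory receptor genes had one. Of 11 genes for Polycomb and H3K27 enzymes, 10 had H3K27ac, 0 had H3K27me3, and Ezh1 had neither. H3K27ac was found at 52.3% of all protein-coding TSS and at 90% of the housekeeping list. Ezh2, the methyltransferase of dividing cells, had 1 H3K27ac peak of 1439 bp, and Kdm6b, a demethylase of the mark, had 5 with the widest at 3463 bp.

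**Figure D1:**
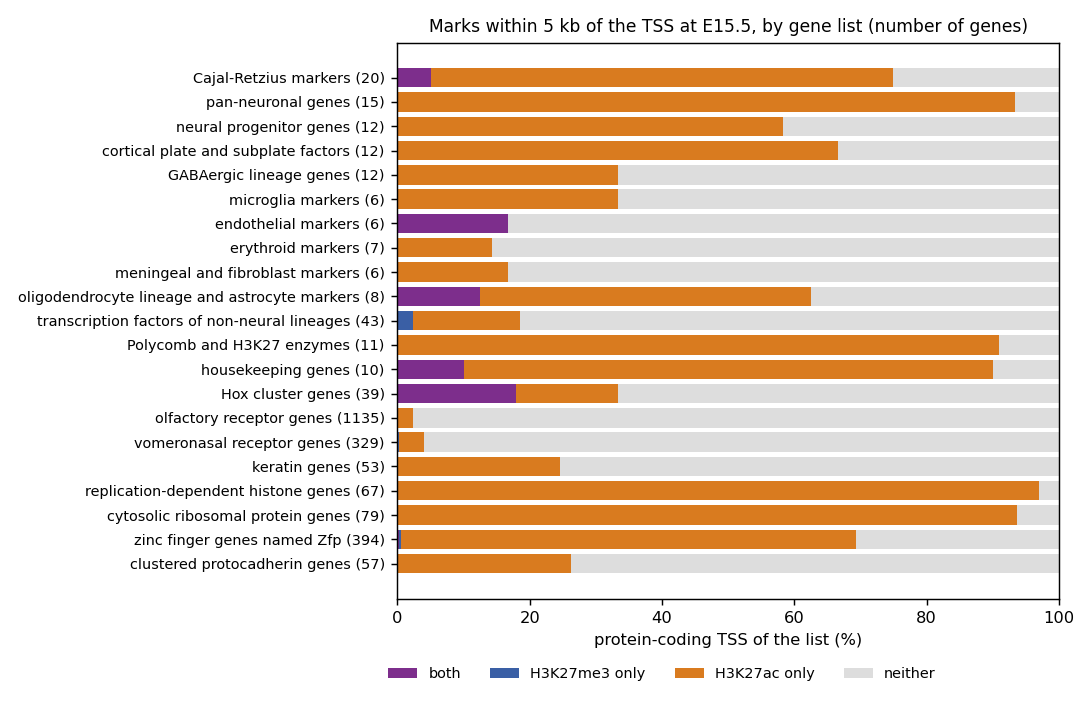
Share of protein-coding TSS (%) with both marks, H3K27me3 only, H3K27ac only or neither within 5 kb at E15.5, for each gene list, with the number of genes in brackets. H3K27ac takes nearly the whole bar of the histone (65 of 67) and ribosomal protein genes (74 of 79). The Hox genes have the longest stretch of both marks, 7 of 39, with all but 1 of the 7 in HoxA.

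Of the 1429 H3K27me3 peaks, 350 overlapped an H3K27ac peak (24.5%, 95% Wilson interval 22.3 to 26.8, counting error only). The interval takes peaks as independent, although many were neighbours at the same locus, so it is too narrow. The shared peaks met 204 H3K27ac peaks. That share was an average over kinds of locus that behaved differently. Peaks within 10 kb of each other were joined, which left 1179 clusters, and 1150 of these were a single peak. The largest cluster covered part of the HoxA genes and a longer stretch beside them, and is called the HoxA block here. The next was a satellite array, and together those clusters held 192 (54.9%) of the shared peaks.

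Each H3K27me3 peak was put in a class. A repeat pile-up overlapped a ribosomal RNA gene, or matched itself at 75% or more under a shift of 20 to 2000 bp, or had words of 31 bases that occur in the genome 10 or more times (median). An exon-restricted gene had 2 or more peaks in different exons and no peak with under 80% of its length in exons, while exons made up less than 20% of the gene. All other peaks were called gene loci. There were 128 repeat pile-up peaks (8.96% of the list, interval 7.58 to 10.6), 15 exon-restricted and 1286 gene-locus peaks. H3K27ac overlapped 85 of the 128 (66.4%, interval 57.9 to 74.0), 7 of the 15 (46.7%, interval 24.8 to 69.9) and 258 of the 1286 (20.1%, interval 18 to 22.3). Without the HoxA block, whose 139 peaks were all shared, 120 of 1148 gene-locus peaks were left (10.5%, interval 8.81 to 12.4). Thus the share fell from 24.5% to 10.5% once the HoxA block, repeats and exon-restricted genes were set aside.

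**Figure D2:**
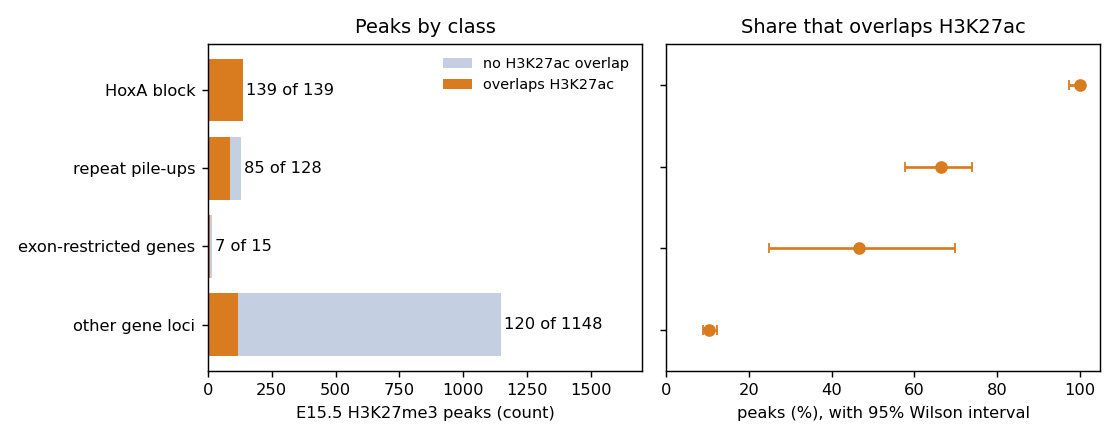
Left, number of E15.5 H3K27me3 peaks in each class, with those that overlap an H3K27ac peak in orange. Right, the same share in percent with its 95% Wilson interval, from 100% in the HoxA block to 10.5% at other gene loci. The interval takes peaks as independent, which neighbours in the HoxA block are not. 1 HoxA peak with repeated words is counted in both of the top classes.

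At HoxA, the marks coincided over a single block. Hox genes pattern the body axis behind the forebrain, and in forebrain they are textbook Polycomb targets. At E15.5, 3 H3K27ac peaks of 14209, 65143 and 63794 bp, separated by gaps of 189 and 168 bp, ran from chr6:52066315-52209817 and covered 99.8% of its 143.5 kb. They were the 3 widest peaks of the list, and the next widest had 4713 bp. In the same interval lay 139 H3K27me3 peaks with a median width of 278 bp, which covered 33.4% of it, and 65 of them lay within the span of the HoxA genes. The first H3K27me3 peak began 421 bp inside the acetylated block and the last ended 287 bp before its end.

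The block held Hoxa2, Hoxa4, Hoxa5 and Hoxa6 and most of the annotated Hoxa3 gene, and on the other side it reached over a stretch with no Hox gene. It stopped between Hoxa6 and Hoxa7. In the 60 kb after its end there were 3 H3K27ac peaks of 875 bp in all and 0 H3K27me3 peaks, and in the 50 kb before its start there were 0 peaks of either mark. Hoxa2, Hoxa3, Hoxa4, Hoxa5 and Hoxa6 had both marks at the TSS, Hoxa7, Hoxa9 and Hoxa13 had H3K27ac alone, and Hoxa10 and Hoxa11 had neither. Within the coding sequence, H3K27me3 peaks covered 100% of Hoxa6, 85.6% of Hoxa5, 76.7% of Hoxa2, 58.9% of Hoxa4 and 46.8% of Hoxa3. H3K27ac covered 100% of each.

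The other Hox clusters looked unlike this block. HoxB had 1 peak of each mark, both near Hoxb5, and 9 of its 10 genes had neither mark. HoxC had 5 H3K27ac peaks over 1.41% of its length and HoxD had 1 over 0.212%, and neither had an H3K27me3 peak.

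The block was also present in the H3K27ac list of E13.5, where 60 peaks covered 90.7% of it. On the left the acetylation began at 52066450, 135 bp inside the E15.5 edge. On the right it ran on to 52212233 when gaps of up to 3 kb were joined, 2416 bp past the E15.5 edge, and the 60 kb after the block held 17 peaks of 4425 bp in all. H3K27me3 at E13.5 had 4 peaks over 0.522% of the block. At E11.5 neither mark had a peak there in EGFP+ cells. In EGFP- cells of that stage 0 of the 1386 H3K27ac peaks and 36 of the 48962 H3K27me3 peaks lay in the block. Those 36 covered 7.42% of it. Of the 139 E15.5 H3K27me3 peaks, 34 overlapped a peak of E11.5 EGFP- cells, 4 a peak of E13.5 and 0 a peak of E11.5 EGFP+ cells. Both marks over the block were thus listed in quantity at E15.5, and the stage could not be told apart from the libraries. Peak lists hold no read depth, so the copy number of the block was not tested, nor whether its near-continuous coverage reflects the marks.

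**Figure D3:**
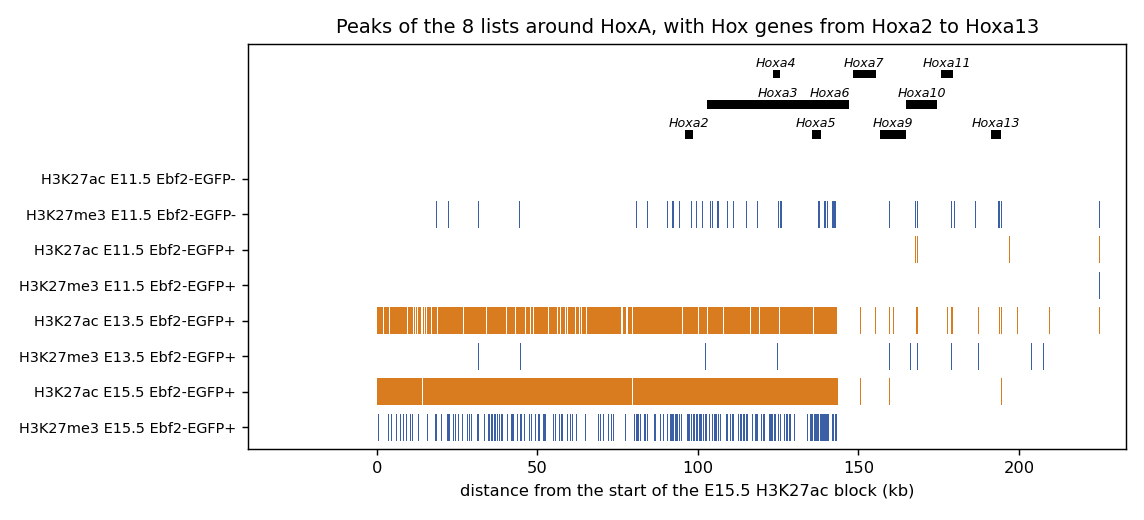
Peaks of H3K27ac (orange) and H3K27me3 (blue) in all 8 lists around HoxA, with the Hox genes from Hoxa2 to Hoxa13 as black bars and distance in kb from the start of the E15.5 H3K27ac block. Acetylation fills 99.8% of the 143.5 kb block at E15.5 and 90.7% at E13.5, and the 139 H3K27me3 peaks of E15.5 begin and end with it.

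Repeat pile-ups gave 85 of the 350 shared peaks, fewer than the HoxA block with 139 and the other gene loci with 120. The satellite array at the start of chromosome 9 (chr9:3000257-3038205) held 57 H3K27me3 peaks and 49 H3K27ac peaks, and 53 of the 57 were shared. Its sequence was AT-rich. The medians over its peaks were 35.3% GC, 100% soft-masked as repeat and 88.9% matching itself. Around the widest peak of the array the shortest matching shift was 234 bp, and 222 of the 234 bases (94.9%) were the same in both units printed above. Predicted protein-coding genes such as Gm10722 and Gm10717 are annotated inside this array, so some TSS with both marks were satellite positions.

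Other pile-ups were smaller. At the ribosomal RNA locus on chromosome 17 (chr17:39843022-39848801, with Gm26917, Gm42418 and AY036118) 5 of 5 H3K27me3 peaks were shared with 3 H3K27ac peaks. At Gm21738 on chromosome 14 (chr14:19415802-19418916) 4 of 4 were shared, and 2 of 2 at chr14:124801565-124802224, where no gene is annotated. The fifth place went to 1 of the 60 single peaks (chr1:64479096-64479215), which was not shared. Outside the 5 named clusters, 21 of the other 59 repeat peaks were shared. Aligned reads of multicopy sequence are placed at 1 of several equal positions by the setting the study used, and peaks over such sequence count reads from all copies.

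These arrays were not particular to E15.5. At E13.5 the chromosome 9 array held 54 H3K27ac and 45 H3K27me3 peaks, and in E11.5 EGFP- cells 45 and 48. E11.5 EGFP+ cells had 6 and 0. Of all H3K27me3 peaks, repeat pile-ups made up 8.96% at E15.5, 6.2% at E13.5, 7.64% in E11.5 EGFP+ cells and 16.7% in E11.5 EGFP- cells. Some repeat-like places stayed outside the class under its rule. Peaks in Gm10800 and Gm10801 on chromosome 2, 3 in all and all shared, were 67.6% soft-masked (median) but had words that occur only 2 times. At Sfi1 and Pisd-ps1 on chromosome 11, 9 of 11 peaks were shared and their words also occurred 2 times.

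Coding exons formed another kind of place. Nrp1 (chr8:128358604-128503363), a receptor for semaphorins and VEGF that guides axons and vessels, had 9 H3K27me3 peaks of 118 to 261 bp. They lay in 9 of its 17 coding exons, with 100% of their length in coding sequence, and covered 56.3% of it, although exons are 6.76% of the gene. In the exon printed above (coding part chr8:128502525-128502811) the peak ran from 128502534 to 128502794. H3K27ac met 4 of the 9 peaks, and its 6 peaks covered 39.4% of the Nrp1 coding sequence.

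Zeb1, a zinc finger repressor of epithelial genes, had 4 H3K27me3 peaks, the widest of 1754 bp, also wholly in coding sequence, of which they covered 75.3%. Of these peaks, 2 overlapped H3K27ac. Insc, which orients the mitotic spindle of progenitors, had 2 peaks of 138 and 155 bp over 15.3% of its coding sequence, and 1 was shared. Neither Nrp1, Zeb1 nor Insc had an H3K27me3 peak in the body at E13.5, and the E11.5 lists had none over their coding sequence except 10.2% of Zeb1 in EGFP- cells.

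Another gene had the same shape outside the rule and was picked after its values were seen. Vcam1 (chr3:116109949-116129688), an adhesion molecule of vessels and progenitors, had 9 H3K27me3 peaks over 63.6% of its coding sequence, with 9 of 10 coding exons hit, 0 peaks outside exons and 0 H3K27ac peaks. It escaped the rule because a long annotated exon raises its exonic share to 44.9% of the gene. E11.5 EGFP+ cells also had 9 H3K27me3 peaks there, over 74.8% of the coding sequence, and E13.5 had 0. Of the 651 protein-coding genes with an H3K27me3 peak in the body, 20 had 50% or more of the coding sequence covered. They included Nrp1, Zeb1 and Vcam1, and most of the others lay in the HoxA block or were predicted genes in satellite or satellite-like sequence. In Nrp1, Zeb1, Insc and Vcam1, 0 H3K27me3 peaks lay wholly in introns, which for Nrp1, Zeb1 and Insc the class rule itself required. Peak lists do not tell fragments of chromatin from spliced sequence such as cDNA in a library, so whether this exon coverage reflects H3K27me3 was not tested.

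**Figure D4:**
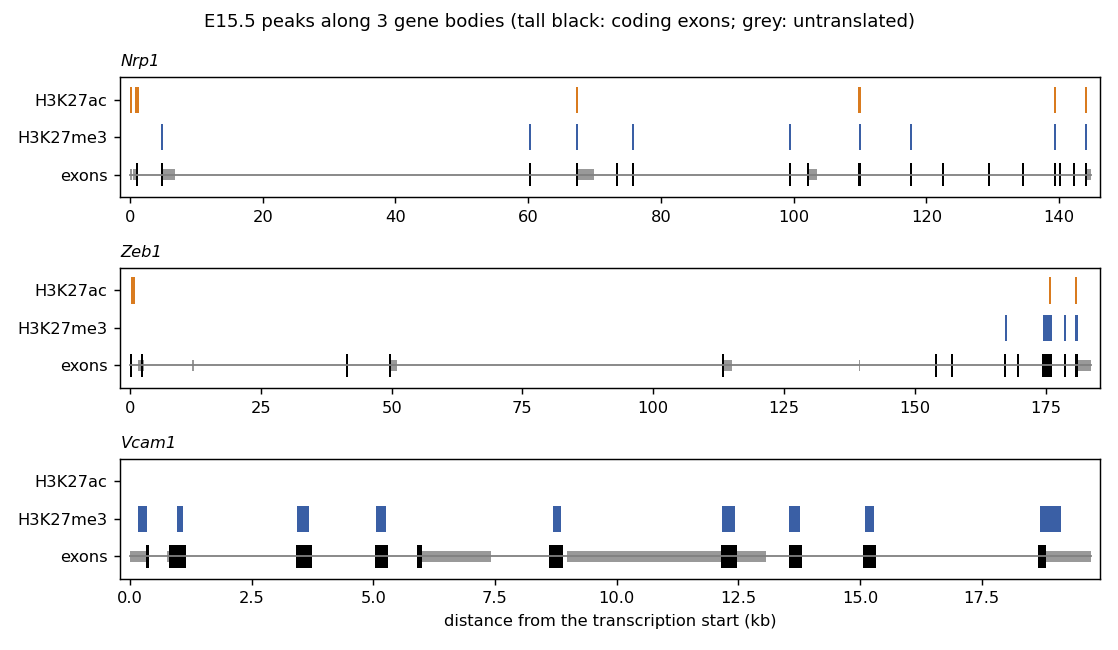
E15.5 H3K27ac (orange) and H3K27me3 (blue) peaks along Nrp1, Zeb1 and Vcam1, as distance from the transcription start in kb, above coding exons (tall black bars) and untranslated exons (grey). Each H3K27me3 peak stands over an exon, with 56.3%, 75.3% and 63.6% of the coding sequence covered.

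Across protein-coding TSS, 165 had both marks (0.752%, interval 0.646 to 0.875), 11303 had H3K27ac only (51.5%, interval 50.9 to 52.2), 67 had H3K27me3 only (0.305%, interval 0.241 to 0.388) and 10403 had neither (47.4%). Leaving out repeat pile-ups and exon-restricted genes lowered the first count to 154. Leaving out the HoxA block as well lowered it to 146, while the 67 stayed at 67. A TSS with H3K27me3 thus mostly had H3K27ac too, in a list of TSS of which 52.3% had H3K27ac.

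Sharing a 5 kb window was not the same as sharing a position. Of the 146 TSS with both marks outside the HoxA block, repeats and exon-restricted genes, 67 had an H3K27me3 peak that overlapped an H3K27ac peak and 79 did not. In the 67 the H3K27me3 peak was centred a median of 454 bp from the TSS, had a GC content of 64.9% and a CpG ratio (observed over expected) of 0.784. In the 79 those medians were 2713 bp, 52.7% and 0.209, and the nearest H3K27ac peak in the window was 2245 bp away. The 67 H3K27me3-only TSS had medians of 2030 bp, 53.5% and 0.237, close to the values of the 79. The 146 TSS were served by 126 separate H3K27me3 peaks, since some peaks lay within 5 kb of more than 1 TSS.

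The 20 both-mark genes with the widest gene-locus H3K27me3 peak fell into a few groups. HoxA gave 8 of the 20, among them Hoxa2 to Hoxa6, Gm28308 and 5730596B20Rik, with peaks of 522 to 1192 bp. Gm10800 and Gm10801 had the satellite-like peak of 1086 bp. All 20 had a peak that overlapped H3K27ac directly.

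Heat shock genes made the next group. Hspa1b, which encodes the inducible chaperone Hsp70, had an H3K27me3 peak of 756 bp centred 213 bp upstream of its start and 1 H3K27ac peak of 719 bp, and the peak covered all 250 bases printed above. That stretch holds 1 match to GAANNTTC, whose letters read the same on both strands, and 6.69% of the 32851 promoters in the table hold at least 1 in the same 250 bases. Hspa1a, its near-identical neighbour, shared a peak of 355 bp with Hspa1l and the overlapping gene Gm20481. This peak overlapped an H3K27ac peak of 295 bp. Words of the 355 bp peak occur 2 times in the genome, so reads of Hspa1a and Hspa1b may not be separable there. Hspa1b had both marks in all 4 groups of cells, and Hspa1a in all but E13.5, where it had H3K27ac only.

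The last 4 of the 20 shared peaks in pairs. Dnajb14, a co-chaperone, had a peak of 290 bp at 183 bp from its start with a GC content of 81.7%, inside 5 kb of H2afz, which encodes the histone variant H2A.Z. Brox and Aida, which start head to head, shared a peak of 387 bp that lay 2102 bp upstream of Brox and 2781 bp downstream of the Aida start. Below the first 20, direct overlap near the start was also seen at CpG-rich promoters such as Pan3 (246 bp), Prdm10 (246 bp), Hnrnpa0 (177 bp) and Egln1 (146 bp), chosen after their values were seen.

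The H3K27me3-only genes with the widest peaks were of mixed function. Zfp982, a zinc finger gene, had 273 bp, Npl, a sialic acid lyase, 252 bp, Dkk3, a Dickkopf family member, 248 bp and Vcam1 241 bp. Nudt17 had 228 bp, Ccne1 (cyclin E1) 220 bp, H2-Oa 220 bp, Slc24a1 212 bp, Sall1, a transcription factor of kidney and microglia, 211 bp and Amotl1 210 bp. Sall1 had its peak 113 bp upstream of the start, with a CpG ratio of 0.706. At E13.5, 7 of these 10 genes had H3K27ac only and Zfp982, Npl and Amotl1 had neither mark. H3K27ac was found at 60.9% of all protein-coding TSS at E13.5, so 7 of 10 is near that share.

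Listed genes with H3K27me3 were few. Trp73, which encodes p73 and marks CR neurons of the cortical hem, was the only CR marker with the mark: a peak of 228 bp lay 4616 bp into the gene, 3982 bp from the nearer of its 2 H3K27ac peaks. It had both marks at E13.5 as well, H3K27ac only in E11.5 EGFP+ cells and H3K27me3 only in E11.5 EGFP- cells. Tie1, an endothelial receptor, had a shared peak of 189 bp at 3148 bp. Pdgfra, a receptor of oligodendrocyte precursors, had 133 bp at 1367 bp upstream, 639 bp from H3K27ac. Tbp, the TATA-binding protein and a housekeeping gene, had 118 bp, the smallest width, centred 38 bp upstream of its start and inside H3K27ac.

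Outside the HoxA block, repeats and exon-restricted genes, shared and unshared H3K27me3 peaks also differed in place. Of the 120 shared peaks, 42 (35%, interval 27.1 to 43.9) were centred within 1 kb of a protein-coding TSS, 21 in exons, 36 in introns and 21 between genes. Of the 1028 unshared peaks, 32 (3.11%, interval 2.21 to 4.36) were at promoters, 123 in exons, 487 in introns and 386 between genes. H3K27ac peaks as a whole had 37.7% at promoters, so the place of the shared peaks is near that of the list they were selected to meet. Median GC content was 61.7% in the shared and 52.5% in the unshared peaks, and the CpG ratio 0.668 and 0.175. Of the shared peaks 81 (67.5%) lay wholly inside 1 H3K27ac peak.

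**Figure D5:**
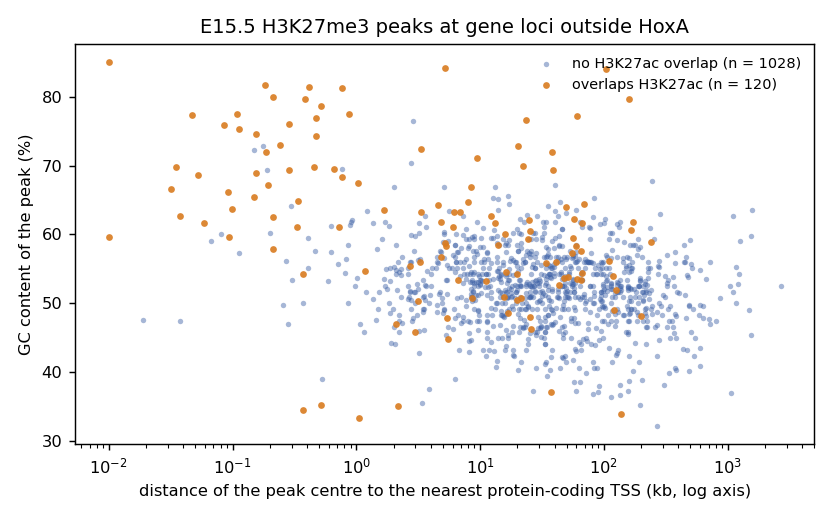
GC content of each gene-locus H3K27me3 peak outside the HoxA block (%) against the distance of its centre to the nearest protein-coding TSS (kb, log axis, values under 0.01 kb drawn at 0.01), in orange where it overlaps H3K27ac (n = 120) and in blue where it does not (n = 1028). Orange points have a median of 61.7% GC and a median distance of 5.36 kb, with 42 of them within 1 kb of a TSS, and blue points have medians of 52.5% GC and 33.2 kb.

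The H3K27ac peaks that were met spanned all widths. They numbered 118, with a median width of 426 bp against 283 bp over the whole list. Peaks at these gene loci met 0.163% of H3K27ac peaks under 200 bp, 0.642% of those of 300 to 500 bp and 0.815% of those of 1000 bp or more. Per length, however, 8.65, 16.8 and 6.06 peaks per Mb of H3K27ac were met in these bins, so wide peaks were not met more often for their size.

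Peaks that met H3K27ac were also found more often in the other H3K27me3 lists. Of the 120 shared gene-locus peaks, 26 (21.7%, interval 15.2 to 29.9) overlapped an H3K27me3 peak of E13.5, against 11 of the 1028 unshared ones (1.07%, interval 0.599 to 1.91). For E11.5 EGFP- cells the counts were 65 (54.2%) and 41 (3.99%), and for E11.5 EGFP+ cells 9 (7.50%) and 14 (1.36%). The H3K27me3 lists of these cells held 48962 and 6387 peaks, against 6721 at E13.5, and the part of list size was not tested. Repeat pile-ups recurred at 57.8%, 57% and 0.781% in the E13.5, E11.5 EGFP- and E11.5 EGFP+ lists. With 1 list per mark these differences could not be tested, and base composition moved with them: shared peaks were richer in GC. Copy number differed as well. Counting words that occur 2 or more times as repeats took gene-locus peaks, HoxA included, from 258 shared of 1286 to 221 of 1197. The place of the shared Gm10800 and Gm10801 peaks had 3, 3 and 0 H3K27me3 peaks in the E13.5, E11.5 EGFP- and E11.5 EGFP+ lists. The part of copy number in the recurrence was not tested.

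The earlier lists were also read at the level of TSS. Of the 146 TSS with both marks at E15.5, 32 (21.9%, interval 16.0 to 29.3) had H3K27me3 at E13.5. The share was 9.31% of all protein-coding TSS and 11.7% of TSS with H3K27ac only at E15.5. In E11.5 EGFP- cells 104 of the 146 (71.2%, interval 63.4 to 78.0) had H3K27me3, against 48.2% of all. For TSS with H3K27ac only at E15.5 it was 67.2%, which lies inside that interval. H3K27ac at E13.5 was found at 128 (87.7%) of the 146, against 60.9% of all and 78.8% of TSS with H3K27ac only at E15.5. Of the 67 TSS with H3K27me3 alone at E15.5, 46 (68.7%, interval 56.8 to 78.5) had H3K27ac at E13.5, against 60.9% of all TSS, which lies inside that interval, and 41.1% of those with neither mark at E15.5. Of the same 67, 11 (16.4%, interval 9.42 to 27.1) had H3K27me3 at E13.5, against 9.31% of all.

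Set beside the other EGFP+ stages, E15.5 had the fewest TSS with both marks: 165, against 1840 at E13.5 (8.39%) and 780 at E11.5 (3.56%). The share of H3K27me3 peaks that overlapped H3K27ac was 24.5% at E15.5, 38.4% at E13.5 and 21.2% at E11.5. The lists differed in size as well. In the same order the H3K27me3 lists held 1429, 6721 and 6387 peaks and the H3K27ac lists 25787, 102877 and 37055, and the part of list size in these counts was not tested.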

How the data were processed

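The data were 8 peak lists (H3K27ac and H3K27me3 by ChIP-seq, antibodies Ab4729 and Ab6002) of the 23 samples, and the 2 E15.5 lists were used throughout. Reads had been aligned by the authors to mm10 with Bowtie 1.1.2 (up to 3 mismatches, and reads with several best places kept at 1 of them), and peaks called with MACS at a p threshold of 1e-05; the MACS version, the control and pooling were not given in the sources used here. The files hold chromosome, start, end, name and a score, and the score as deposited is 0 in every line. Depth is not in the files, so the precision given is the 95% Wilson interval of a share, which covers counting error only. It takes peaks and genes as independent, although neighbours at the same locus are not. The 15 mitochondrial peaks of E15.5 were left out.

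Peaks were compared with Python 3.11.15, numpy 2.4.6 and pandas 2.3.3, with GENCODE M21 genes and the GRCm38.p6 genome, and 0 peaks lay beyond a chromosome end. Self-matches used the peak with 500 bp on either side, at most the first 5 kb of it. Named genes were the 20 widest with both marks, the 10 widest with H3K27me3 only, all CR markers, other listed genes with H3K27me3, the 5 largest repeat clusters and all exon-restricted genes. Sequences were printed from the widest H3K27me3 peak of the HoxA block, of Nrp1 and of the satellite array. The Hspa1b promoter was added, passing over Gm10800, which is satellite-like. Whether the printed Nrp1 peak itself overlapped H3K27ac was not checked when it was chosen. Some named genes are not reported here. The overlap, state and interval functions were tested on simulated peaks. Members and lists were chosen with earlier results of these data known. No test was made, because each mark had 1 list per group.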

Additional observations from a re-analysis of the deposited data

Results flagged for a closer look

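Peaks on the mitochondrial chromosome lay outside every comparison. The H3K27ac list of E15.5 held 6 of them, of 200 to 631 bp and 2443 bp in all, and the H3K27me3 list held 9, of 139 to 1073 bp and 3307 bp in all. They were listed for a closer look because mitochondrial DNA carries no histones and both counts were above 3, the limit set for a count of 0. Input libraries had no peak list here to compare with.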

How the results depend on the processing

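Of 48 alternatives, 16 stayed within the counting interval of the value they varied and 32 did not, and 13 of the 48 were chosen after seeing the data. The shared part of all nuclear H3K27me3 peaks, 24.5%, became 7.98% with a reciprocal overlap of 50%, 28.1% with gaps up to 1 kb, 19% with H3K27ac peaks of 300 bp or more, 14.2% with H3K27me3 peaks merged within 1 kb and 20.4% without repeat pile-ups, and, chosen after seeing the data, 16.4% without the HoxA block, 10.5% without it, repeats and exon-restricted genes and 32.2% without peaks of 118 bp. For gene-locus peaks, 20.1%, the same settings gave 3.19%, 23.8%, 17.3% and 12.3%, and the added ones 10.5% without the HoxA block, 26.1% without 118 bp peaks and 16.0% without genes whose coding sequence was covered by 50% or more. TSS with both marks, 0.752%, became 0.351% in a 1 kb window, 1.38% in 10 kb, 1.37% with any transcript start, 0.114% with peaks of 300 bp or more, 0.57% without 118 bp peaks and 0.387% where the marks had to overlap, the last 2 settings added later. H3K27ac only, 51.5%, became 45.7%, 56.4%, 55.0% and 42.5% under the first 4 of these, and H3K27me3 only, 0.305%, became 0.100%, 0.456%, 0.410% and 0.0137%, and 0.21% without 118 bp peaks. Repeat pile-ups, 8.96%, became 15.2% with a word count of 2 and 6.3% with 100. Wider windows and looser overlap admit more by construction; other causes were not tested. No paired analysis was possible because no result comes from a test and each mark had 1 list. Width limits what can be said: 450 H3K27me3 peaks sat at the smallest width called.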
